A study of Emberiza melanocephala with 4 samples.

Results

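YWHAQ, YWHAH and YWHAB encode the theta, eta and beta isoforms of the 14-3-3 proteins. They were followed in 4 RNA libraries of a migrating songbird, the black-headed bunting or Emberiza melanocephala. The members were the transcripts whose reference gene name is one of these 3 symbols, out of 384 reference genes listed in at least 1 library. They had been selected on their FPKM and on where they were listed in these same libraries, so that their levels and listings are a description and carry no test. The libraries, 1 each, were labelled short-day (SD) hypothalamus, long-day (LD) hypothalamus, SD liver and LD liver. All came from wild-caught birds, and the labels used here give no sex, age or day length. The groups follow the sample titles. The recorded seasonal state contradicts the title of LD hypothalamus, recorded as short day, and of SD liver, recorded as long day. With 1 library per group there was no replicate check of any difference.

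The 14-3-3 proteins are small acidic adaptors that work as homodimers and heterodimers. Each dimer binds phosphorylated serine or threonine motifs on client proteins, such as kinases, phosphatases and transcription factors, and changes their activity, their partners or their place in the cell. The family is especially abundant in vertebrate brain. Well-known clients include FOXO transcription factors, tyrosine hydroxylase of the catecholamine pathway and AANAT, the penultimate enzyme of melatonin synthesis.

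In the SD libraries the 3 genes were mostly not listed, while in the LD libraries those listed stood among the more abundant named transcripts. YWHAQ had 6.32 FPKM in SD hypothalamus, 77.1 in LD hypothalamus and 89.8 in LD liver. SD liver did not list it. FPKM is read coverage per base of transcript scaled to all aligned sequence of a library, so transcript length is divided out. Uneven coverage along a transcript is not, and it bears on comparisons between genes, as described further on. YWHAH had 226 FPKM in LD hypothalamus and 215 in LD liver, and was listed in neither SD library. YWHAB had 79.2 FPKM in LD hypothalamus and was listed nowhere else. Thus SD hypothalamus listed 1 of the 3 members and LD hypothalamus listed 3, while LD liver listed 2 and SD liver 0. Of all 384 genes, SD hypothalamus listed 55 (14.3%), LD hypothalamus 175 (45.6%), SD liver 86 (22.4%) and LD liver 248 (64.6%), so the LD files list more genes of any kind. A gene that is not listed is not shown to be at 0.

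**Figure D1:**
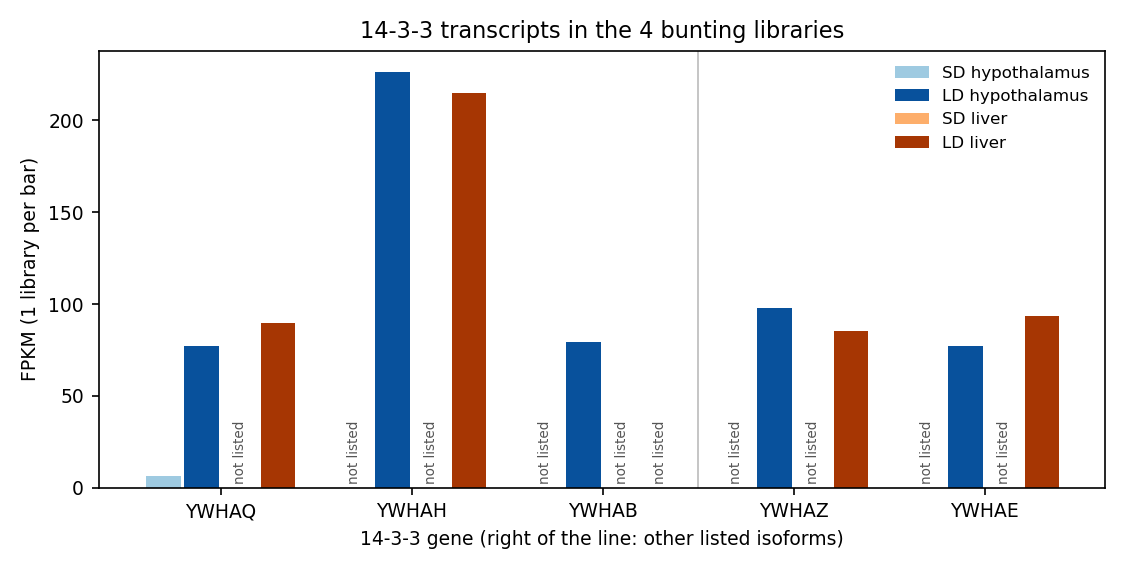
FPKM of YWHAQ, YWHAH and YWHAB, and of the other listed 14-3-3 genes YWHAZ and YWHAE right of the line; each bar is 1 library and a gene without a transcript in a file is marked as not listed. YWHAH is the highest bar in both LD libraries, at 226 and 215 FPKM, and the only SD bar is YWHAQ at 6.32 FPKM.

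The whole family was looked at in the same way, by a list of 7 isoform genes. Of these, 5 were listed, namely the 3 members with YWHAZ (zeta) and YWHAE (epsilon). YWHAG (gamma) and SFN (sigma, an isoform of epithelia) were listed under their symbols in no library. YWHAZ had 98.1 FPKM in LD hypothalamus and 85.2 in LD liver, YWHAE had 77.0 and 93.6, and neither was listed in an SD library. The 5 genes summed to 558 FPKM in LD hypothalamus, which was 9.32% of the summed FPKM of genes with a symbol in that library. In LD liver the 4 listed isoforms summed to 483 FPKM, or 5.76%. In SD hypothalamus YWHAQ alone made up 0.463%.

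YWHAH was the highest isoform in both LD libraries. In LD hypothalamus it stood 2.31 times above YWHAZ, the next isoform, and the other three followed closely, with YWHAB 1.03 times above YWHAQ and YWHAQ 1.002 times above YWHAE. In LD liver YWHAH stood 2.30 times above YWHAE, which was 1.04 times above YWHAQ, itself 1.05 times above YWHAZ. The order below YWHAH differed between the libraries, and with no replicates these small steps have no error against which to judge them. Among genes with a symbol, YWHAH ranked 4 of 126 in LD hypothalamus and 5 of 183 in LD liver. YWHAQ ranked 19 and 23 in these libraries but 27 of 34 in SD hypothalamus. YWHAB ranked 17 of 126.

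The 3 genes were each represented by 1 reference transcript, the same one wherever it was listed, so that every ratio of a member compares the same transcript length. Coordinates are on FicAlb_1.4, the genome build of Ficedula albicollis (collared flycatcher) that guided the assembly. YWHAQ (ENSFALG00000006634) lies on the minus strand of scaffold JH603252.1 from 1483975 to 1509182, a span of 25208 bases with 5 exons and a transcript of 5796 bases. YWHAB (ENSFALG00000005366) lies on the plus strand of JH603233.1 from 1370976 to 1377304, with 5 exons and 2591 bases. YWHAH (ENSFALG00000007388) lies on the minus strand of JH603179.1 from 3137479 to 3145594, and its model has 2 exons and 1859 bases. No other transcript, named or newly assembled, overlapped any of these 3 loci on either strand in any of the 4 files, nor lay within 50000 bases of them. The files mark exons but not coding parts or UTRs.

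The models of YWHAQ and YWHAB share a feature that the choice of members did not use, and that of YWHAH has no internal exon. Counted from the 5′ end, the internal exons 2, 3 and 4 are 124, 164 and 96 bases long in YWHAQ and equally long in YWHAB and in YWHAZ. Of the 36 listed genes with a 5-exon model, these were the only 3 with this set of lengths. YWHAE, also with 5 exons, has internal exons of 107, 207 and 137 bases.

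Coverage was uneven along the transcripts, and it was highest on the short internal exons of YWHAQ and YWHAB. Exon values are given on the FPKM scale, as exon coverage times the FPKM per coverage of the library. In LD hypothalamus the 5 exons of YWHAQ stood at 91.6, 289, 284, 312 and 59.6 from the 5′ to the 3′ end. In LD liver they stood at 79.0, 218, 225, 328 and 78.5. The same shape was seen for YWHAB in LD hypothalamus, at 62.3, 226, 258, 226 and 49.5. The 3′ exon of YWHAQ is 5027 bases long and makes up 86.7% of the transcript, so that its low coverage sets most of the gene's FPKM. Internal exons above the 3′ exon were common, in 82.4% of listed transcripts with at least 3 exons in LD hypothalamus and 89.4% in LD liver.

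YWHAH, with no internal exon in its model, was covered mainly at its 3′ exon of 1464 bases. That exon stood at 281 in LD hypothalamus and 262 in LD liver on the FPKM scale, against 24.8 and 39.9 at the 5′ exon of 395 bases. It held 97.7% and 96.1% of the gene's aligned bases. A level of YWHAH is therefore the level of 1 exon, while those of YWHAQ and YWHAB average long 3′ exons with better covered internal ones. On internal exons alone YWHAQ had 292 FPKM and YWHAB 240 FPKM in LD hypothalamus, close to the 281 of the YWHAH 3′ exon. That pairs exons of unlike kinds. Between 3′ exons in that library YWHAH led, at 281 against 59.6 in YWHAQ and 49.5 in YWHAB. Between 5′ exons YWHAH was lowest, at 24.8 against 91.6 and 62.3. The lead of YWHAH over the other members thus depends on which part of the transcripts is counted.

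**Figure D2:**
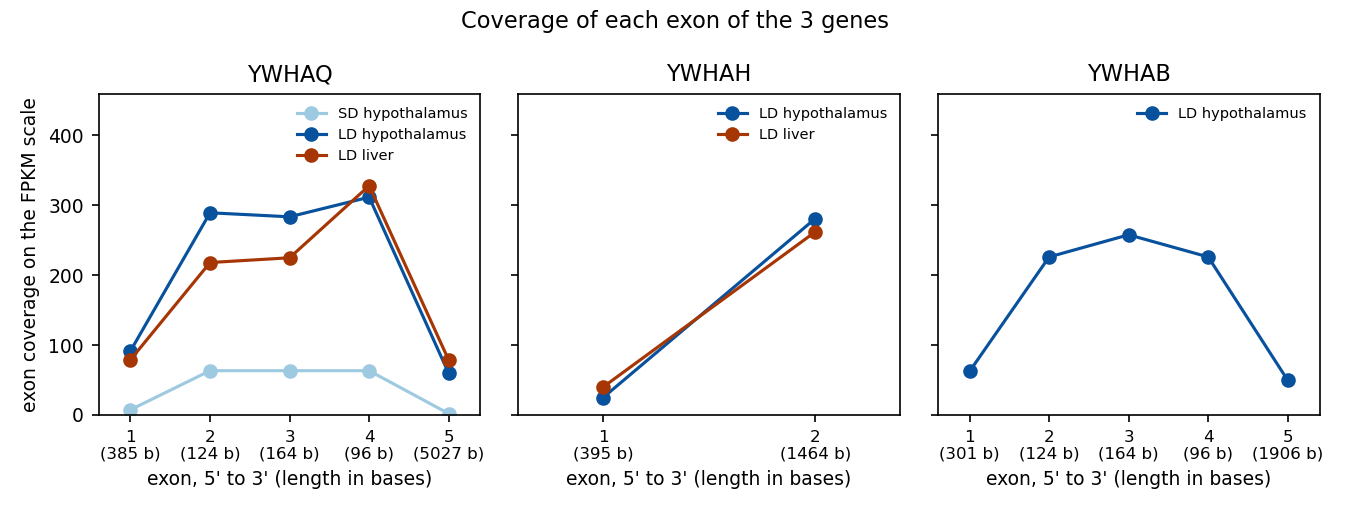
Coverage of each exon of YWHAQ, YWHAH and YWHAB from the 5′ to the 3′ end, on the FPKM scale, with exon lengths in bases under the axis and 1 line per library that lists the gene. In YWHAQ and YWHAB exons 2 to 4 lie above both end exons, and YWHAQ in SD hypothalamus is flat at 63.3 over exons 2 to 4.

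The members are paralogs, and reads of paralogs can align to more than 1 gene. How alike the members are in sequence was not measured here. In the files, aligned bases per exon (coverage times length) were whole numbers, within 0.01, for all 24 exon values of the 3 members and all 10 of YWHAE. For YWHAZ they were whole in 2 of 10. Over all reference exons 68.1% of values were whole in LD hypothalamus and 67.0% in LD liver. StringTie, which made the files, gives a read that aligns to several places a fraction of its weight at each. Whether such reads are the source of the broken values of YWHAZ was not tested.

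By the titles, LD against SD hypothalamus compares seasonal states within a tissue. The recorded state of LD hypothalamus and the level of APOA1 in SD hypothalamus, described further on, go against these labels. Only YWHAQ has a value in both libraries. With a pseudocount of 1, its log2 ratio was 3.42, and the plain ratio of its levels was 12.2. This was the second highest of the 22 log2 ratios formed from genes listed in both libraries, around a median of -0.003. At least 2-fold higher in LD were 27.3% of these genes, and 1 of 1 member with a ratio was among them. The 22 genes include unnamed ones at very high levels, such as ENSFALG00000015904 at 136122 FPKM in SD and 106576 in LD hypothalamus. Apart from YWHAQ, 4 named genes were listed in the same 3 libraries. CALM3, DSTN and DYNLL2 were also at least 2-fold higher in LD hypothalamus, and ZFP36L1 was not (24.2 in SD and 22.1 in LD). YWHAQ belongs to the contrast that chose it, so nothing is read from its rank. YWHAH and YWHAB, at 226 and 79.2 FPKM in LD hypothalamus, have no ratio because SD hypothalamus does not list them.

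The SD value of YWHAQ rests on very little sequence. It came from 579 aligned bases, against 5933 in LD hypothalamus and 9259 in LD liver. Coverage was exactly 1 over each of the 3 internal exons, with 45 bases in the 5′ exon and 150 bases in the 3′ exon. No part of the gene had a mean exon coverage above 1 in SD hypothalamus. Exon by exon the ratio of LD to SD hypothalamus ranged widely. It was 12.4 at the 5′ exon, 4.57, 4.48 and 4.92 at the internal exons and 31.6 at the 3′ exon. All 5 exons were higher in LD, but they may share reads and YWHAQ was chosen on this contrast. Their agreement is therefore no separate support for the direction. On internal exons the log2 ratio was 2.19 and on the 3′ exon 4.39, so the size of the ratio is not settled by these data.

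Aligned sequence came to 15.8 Mb in SD and 13.3 Mb in LD hypothalamus, and to 20.8 Mb in SD and 17.8 Mb in LD liver. At the level of LD hypothalamus, SD hypothalamus would hold 7064 aligned bases of YWHAQ, 6652 of YWHAH and 3241 of YWHAB. At the level of LD liver, SD liver would hold 10819 of YWHAQ and 8296 of YWHAH. Most aligned sequence lay outside genes with a symbol. The share of it in genes with a symbol moved with the listings, at 0.277% in SD hypothalamus and 0.333% in SD liver but 1.42% and 1.88% in the LD libraries. Its part in the result was not tested.

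Measured within the genes with a symbol, the step in YWHAQ was smaller. It held 1.32% of their aligned bases in SD hypothalamus, 3.14% in LD hypothalamus and 2.77% in LD liver. YWHAH held 2.96% and 2.12% in the LD libraries, and YWHAB 1.44% in LD hypothalamus. Scaled to these bases, the log2 ratio of YWHAQ between LD and SD hypothalamus fell to 1.13, while the median of the 22 genes moved to -2.13. This scaling moves every gene of the comparison alike, apart from the pseudocount.

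Between LD and SD liver no member has a ratio. SD liver lists neither YWHAQ nor YWHAH, which stood at 89.8 and 215 FPKM in LD liver, and YWHAB is in neither file. Between the SD libraries no member has a ratio either, since SD liver lists none. The 579 aligned bases of YWHAQ in SD hypothalamus would correspond to 4.81 FPKM in SD liver.

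By the titles, LD liver against LD hypothalamus compares tissues within the long-day state, but neuron markers stood in both libraries. LD hypothalamus is recorded as short day, so by the record the libraries also differ in season. The 2 members listed in both, YWHAQ and YWHAH, differed by less than 2-fold. The log2 ratio was 0.22 for YWHAQ and -0.08 for YWHAH, or 1.16 and 0.948 as plain ratios. YWHAZ (-0.20) and YWHAE (0.28) were as close. Of the 98 genes listed in both libraries, 30.6% were at least 2-fold higher or lower, and 0 of 2 members were. The median log2 ratio was 0.04, and the range ran from -2.73 to 3.66. The direction for YWHAQ was not uniform along the transcript. Its 5′ exon and exons 2 and 3 were lower in LD liver, at 0.862, 0.754 and 0.793 times LD hypothalamus, whereas exon 4 and the 3′ exon were higher, at 1.05 and 1.32 times. On internal exons alone its log2 ratio was -0.23, and scaled to genes with a symbol it was -0.18. YWHAB has no ratio, since LD liver does not list it. The same holds for 77 of the 175 genes listed in LD hypothalamus (44.0%).

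**Figure D3:**
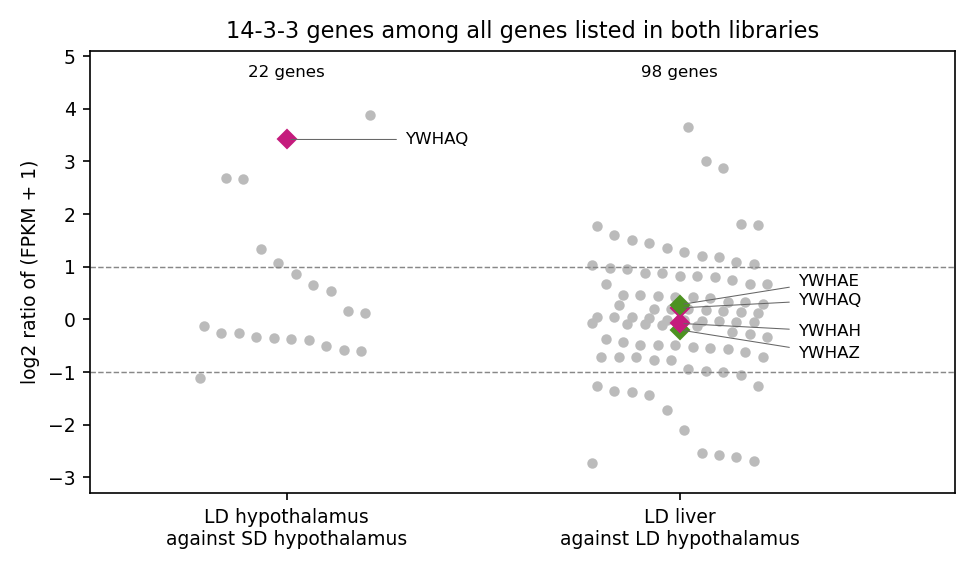
Log2 ratio of (FPKM + 1) for every gene listed in both libraries of a comparison (grey), with YWHAQ and YWHAH as magenta diamonds and YWHAZ and YWHAE as green ones; dashed lines mark 2-fold. YWHAQ is second highest of 22 genes between the hypothalamus labels, and the 4 isoforms lie between -0.20 and 0.28 among 98 genes between the LD labels.

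The tissue labels were set against markers, because levels of the members cannot be placed in a tissue otherwise. Of 12 neuron markers, LD hypothalamus listed 2, LD liver listed 3 and the SD libraries listed 0, with summed levels of 329 FPKM in LD hypothalamus and 535 in LD liver. SNAP25, which drives fusion of synaptic vesicles, led with 290 and 462 FPKM. Of 12 glial markers only GPM6B was listed, at 91.2 and 87.1 FPKM in the same libraries, and the defining MBP and GFAP were listed nowhere. Of 15 hepatocyte markers only APOA1, the major apolipoprotein of HDL, was listed. It stood at 655 FPKM in SD liver (on an assembled transcript), at 327 in SD hypothalamus and at 20.9 in LD liver. ALB, TTR and the fibrinogen genes were listed nowhere, nor was any of 7 red blood cell or 6 muscle markers.

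These markers go against the label LD liver, where SNAP25 stood at 462 FPKM, above its 290 in LD hypothalamus. All 3 neuron markers listed in any library were in LD liver, but this count adds little, since LD liver lists 64.6% of all 384 genes. The markers also go against the label SD hypothalamus, where the case rests on APOA1 alone, the only 1 of 15 hepatocyte markers listed anywhere. The lack of listed neuron markers in SD hypothalamus says little, since that library lists 14.3% of all 384 genes. Members were abundant in the 2 libraries with neuron markers, 3 of them in LD hypothalamus and 2 in LD liver. The 2 libraries with few or no members were those with APOA1 at 327 and 655 FPKM. How far this marker difference accounts for the levels of the members was not tested. Each of these pairs of libraries holds 1 library recorded as short day and 1 recorded as long day. By the titles, season and tissue of origin cannot be told apart here, and whether the titles or the records hold was not tested. In bulk RNA, fewer cells of a type and less RNA per cell cannot be told apart either. Listing in both LD libraries and in neither SD library was shared by 19.0% of all 384 genes, among them YWHAH, YWHAZ and YWHAE.

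**Figure D4:**
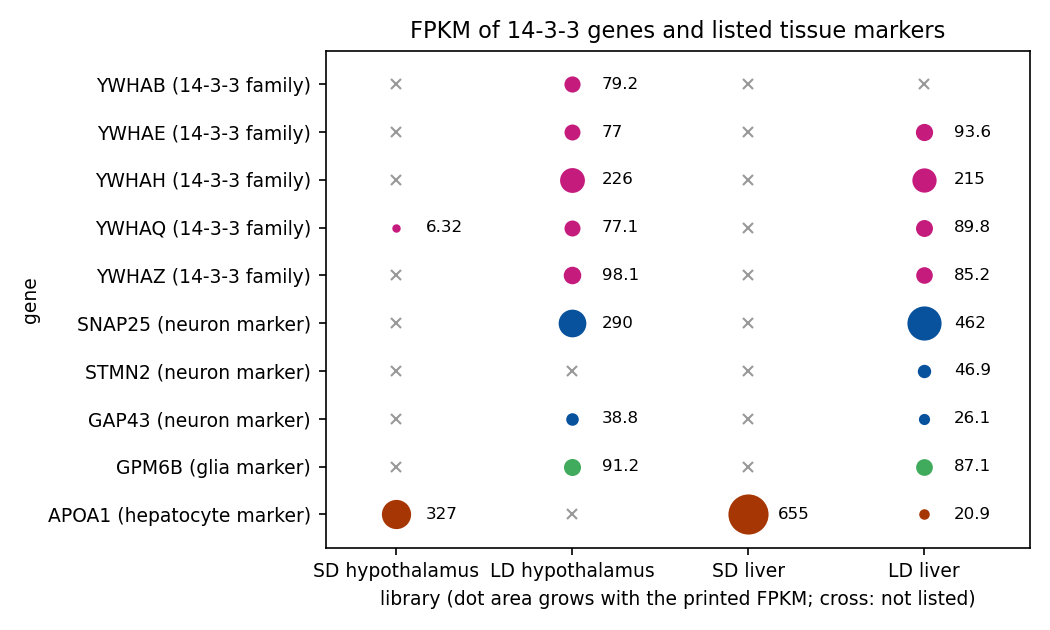
FPKM of the listed 14-3-3 genes and of the listed neuron, glia and hepatocyte markers in each library, with assembled transcripts that overlap a gene added; dot area grows with the value and a cross means not listed. The neuron marker SNAP25 and most 14-3-3 genes stand in the LD columns, and APOA1 stands highest in the SD columns at 327 and 655 FPKM.

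Of a list of 61 clients of 14-3-3 proteins and kinases or phosphatases that act on their binding sites, 1 was listed. PPP1CB, a catalytic subunit of protein phosphatase 1, had 55.3 FPKM in LD hypothalamus and 33.1 in LD liver and was in neither SD library. The FOXO genes, TH and AANAT were listed nowhere under their symbols, which at this depth does not show that they were absent.

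The genes nearest to each member were sought among genes with a symbol and with the same pattern of listing, by the mean absolute difference of log2 (FPKM + 1). For YWHAQ, over 3 libraries and 4 candidates, they were the calmodulin gene CALM3 (difference 0.73; 9.88, 160 and 136 FPKM in SD hypothalamus, LD hypothalamus and LD liver), the actin-depolymerising factor DSTN (0.94) and the dynein light chain DYNLL2 (1.19). For YWHAH, over 2 libraries and 59 candidates, they were OLFM1, a secreted glycoprotein of neurons (0.27; 201 and 277 FPKM), the G-protein subunit GNB1 (0.46; 150 and 171 FPKM) and the brain-type creatine kinase CKB (0.68). For YWHAB likeness means only a similar level in LD hypothalamus, where CPE, a peptide-processing enzyme (87.3 FPKM), the recycling-endosome GTPase RAB11A (64.4 FPKM) and the ubiquitin-conjugating enzyme UBE2D3 (54.4 FPKM) were nearest of 46. The likeness of CPE does not hold when assembled transcripts are counted, since an assembled transcript at its locus had 348 FPKM in LD liver. On that count ATP6V1C1, a subunit of the vesicular proton pump, was nearest to YWHAH (0.027; 224 and 209 FPKM), and CKB (366 FPKM in LD liver) was no longer among its 3 nearest. DSTN (0.94) then came before CALM3 (1.18; 346 FPKM in LD liver) as nearest to YWHAQ.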

How the data were processed

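Pyrosequencing was used for total RNA of the 4 libraries, per the labels' protocols. Each deposited file holds the transcripts that StringTie 1.3.3b assembled from trimmed, aligned reads of 1 library, with FicAlb_1.4 of Ensembl 89 as guide, per the file headers. Not given in the sources used here are the aligner, the trimming tool and the strandedness. The deposited files give coverage, FPKM and TPM for each transcript and coverage for each exon. Aligned sequence of a library was derived from the ratio of FPKM to coverage, which is constant within a file. Read counts were not used here, so no counting interval is given.

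FPKM was summed per reference gene with Python 3.11.15, and log2 ratios with a pseudocount of 1 were formed only for genes listed in both libraries; they understate changes of low genes. A ratio of 2 or more was called. Marker levels include assembled transcripts overlapping a gene's exons on its strand. Reading, summing per gene, ratios and calls were checked on simulated data, made from LD liver values multiplied by known factors without noise. The other steps were not checked in this way. Named genes were the members, every listed gene of the lists and the 3 nearest genes per member. Members, lists and rules were chosen with earlier results of these data known. Alternatives covered scale, pseudocount, library scaling, unlisted genes, assembled transcripts, low values and exon subsets.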

Additional observations from a re-analysis of the deposited data

How the results depend on the processing

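The log2 ratio of YWHAQ between LD and SD hypothalamus (3.42) ran from 1.13 to 4.39 over 12 alternatives, all past 2-fold. Those for unlisted genes, assembled transcripts, the highest transcript and a minimum of 150 aligned bases could not move it. YWHAQ has 1 transcript, listed in both libraries, overlapped by no other and above that minimum. The ratio rests throughout on the same 579 aligned SD bases or a part of them, so the alternatives are no separate support. Its unlogged fold moved by more than 1.5 times where the log2 ratio went to 2.42 with a pseudocount of 10 and, in alternatives chosen after seeing the data, to 2.19 on internal exons, 4.39 on the 3′ exon and 1.13 when scaled to genes with a symbol. TPM moved the median gene of that comparison to 0.26. Between the LD libraries YWHAQ, YWHAH, YWHAZ and YWHAE stayed within 2-fold in every alternative, between -0.60 and 0.39. Genes at least 2-fold apart, in the order LD against SD hypothalamus, LD against SD liver, SD liver against SD hypothalamus and LD liver against LD hypothalamus, numbered 7, 13, 5 and 30. With unlisted genes at 0, members included, they numbered 187, 272, 89 and 254. Scaled to genes with a symbol the first became 20 (2 higher, 18 lower), the second 27 (1 higher, 26 lower) and the third 10, and the fourth split 9 higher and 23 lower. A pseudocount of 10 gave 1 for the third and 19 for the fourth, a minimum of 150 aligned bases gave 8, 2 and 17 for the second, the third and the fourth, and assembled transcripts gave 10 for the third. TPM split the second 13 higher and 4 lower, against 8 and 5. No paired analysis was possible because each group has 1 library. No ratio of a single member against a library that does not list it is reported.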

Other observations

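YWHAZ and YWHAE, the listed isoforms that are not members, had exon profiles that differed from each other. In LD hypothalamus the internal exons of YWHAZ stood at 216, 193 and 120 on the FPKM scale from the 5′ end, against 97.4 at the 5′ exon and 81.1 at the 3′ exon. YWHAE stood at 101, 350 and 464 over its internal exons, against 13.2 and 38.6 at its ends. In LD liver YWHAE stood at 109, 407 and 506 over the same exons. All 5 exons of YWHAE were higher in LD liver than in LD hypothalamus, by 1.07 to 2.73 times, and 4 of 5 exons of YWHAZ were lower, at 0.765 to 0.921 times.

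By aligned bases, which are not divided by length, YWHAQ held more sequence than YWHAH in both LD libraries. It ranked 7 of 126 genes with a symbol in LD hypothalamus and 5 of 183 in LD liver, where YWHAH ranked 8 and 12. The 5 isoforms together held 11.0% of the aligned bases of genes with a symbol in LD hypothalamus, and the 4 listed in LD liver held 7.62%.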
